A study of Homo sapiens with 6 samples.

Results

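Transcripts of 6 genes that sense, conjugate or export bile acids were compared between siH19 and siCon cells. They were NR1H4, BAAT, SULT2A1, ABCC2, SLC51A and SLC51B, chosen by name as rows of the authors' deposited table of 1998 genes, with earlier results of these data known. The cells were HepG2, a human hepatocellular line that keeps many hepatocyte functions. They were collected 48 h after transfection with an siRNA against the long noncoding RNA H19 (siH19, 3 libraries) or with a control siRNA (siCon, 3 libraries), and no other agent or allele is named for either group. Ribosomal RNA was depleted before stranded total RNA sequencing, and the study set out to find genes whose transcripts change when H19 is reduced. The level of H19 itself was not analysed here, and the strength of the knockdown is not known.

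Hepatocytes make bile acids from cholesterol, join them to taurine or glycine, and pump them into bile. NR1H4 encodes the nuclear receptor FXR, which binds bile acids, works as a partner of RXR, and in liver is known for lowering bile acid synthesis and raising export. Sulfation makes bile acids more soluble, and SLC51A with SLC51B forms a transporter that returns bile acids to the blood side of the cell.

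The deposited table lists called genes only, so 100% of its genes, these 6 included, have an adjusted p under 0.05 and being listed sets none of them apart. Each gene has 1 combined value per group, called a normalized count here, and the authors' fold change with a standard error (SE) and an adjusted p. No value per library or library total was used, and depth is therefore unknown. The labels do not state whether replicate libraries were separate cultures, so the SE may reflect technical spread only. Of 11 hepatocyte markers 10 were listed, led by APOB with a mean normalized count of 240657, while ALB had 42275 in the authors' deposited table. All 10 fell, and their median log2 fold change was -0.64. Of the markers of other cells, the listed ones were SPP1 of bile duct (1 of 9), VIL1 of ileal enterocytes (1 of 9), ACTA2 of stellate cells (1 of 6), and CD68 and LYZ of blood cells (2 of 5). SPP1 and VIL1 were higher, at 0.53 and 0.29, and ACTA2, CD68 and LYZ were lower, at -0.83, -1.21 and -0.64, on the log2 scale of the authors' deposited table. All libraries came from 1 cell line, so these values are transcript levels in HepG2 cultures and not numbers of cells of other types. In bulk samples, a change in all cells and a change in some of them cannot be told apart. The part of these markers in the results was not tested.

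The receptor, the sulfating enzyme and all 3 export genes fell in siH19, and the amino acid conjugating enzyme BAAT rose. Thus 5 of the 6 genes were lower, where 55.3% of all listed genes were lower, and 1 was higher, where 44.7% of all listed genes were higher. The median log2 fold change was -0.58 over the 6 genes and -0.27 over all 1998 genes. Falls of at least 2-fold were listed for SULT2A1 and NR1H4 and for 2.4% of all listed genes. With 6 genes that were not sampled at random, these counts describe the genes and were not tested.

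**Figure D1:**
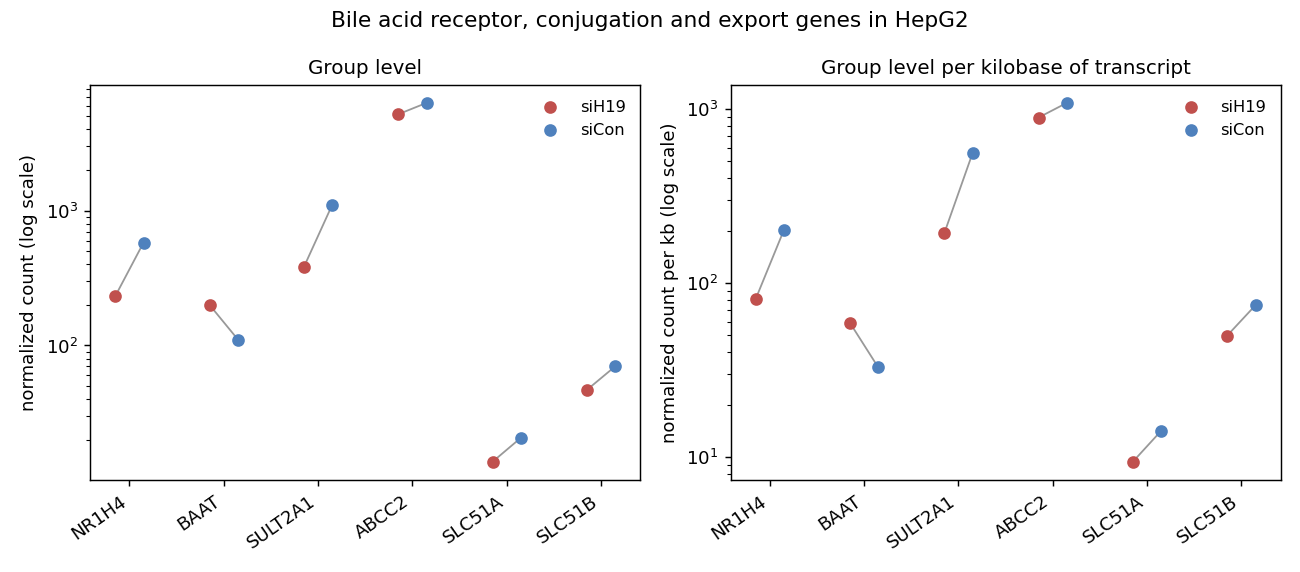
Normalized count (left) and normalized count per kilobase of the longest coding transcript (right) for the 6 genes, each as 1 combined value for siH19 (red) and siCon (blue) on log axes, with no error bars because no value per library was used. BAAT is the 1 gene whose siH19 point lies above its siCon point, and ABCC2 has the highest level in both groups.

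NR1H4, the receptor, had a normalized count of 232 in siH19 cells and 580 in siCon cells. The fall in the authors' deposited table was -1.31 ± 0.12 on the log2 scale (SE), with an adjusted p written as 0, meaning below the precision of the table. The siH19 level was thus 40.3% of the siCon level, and a range of 2 SE on either side ran from 34.2% to 47.6%. Only 8 of the 1998 listed genes had a lower log2 fold change.

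Of 21 further genes of receptor and feedback signalling, 17 were not listed and the 4 that were listed were lower, with a median of -0.50, beside 55.3% lower and a median of -0.27 over all listed genes. NR0B2, which encodes the repressor SHP and is a known target of the receptor, had a normalized count of 592 in siH19 cells and 904 in siCon cells, with a log2 fold change of -0.61 ± 0.10 in the authors' deposited table. KLB and FGFR4, which together form the liver receptor for the hormone FGF19, changed by -0.52 ± 0.09 and -0.36 ± 0.11 in the authors' deposited table. HNF4A, a nuclear receptor that drives many hepatocyte genes, changed by -0.47 ± 0.09 there. The authors' deposited table therefore gives the receptor gene itself a larger fall than any of these 4 genes.

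The 2 conjugating enzymes changed in opposite directions. SULT2A1, the sulfotransferase that adds sulfate to bile acids and steroids, had a normalized count of 383 in siH19 cells and 1105 in siCon cells. In the authors' deposited table this was a log2 fold change of -1.53 ± 0.13, a 2.89-fold fall, with an adjusted p written as 0. A single listed gene had a lower log2 fold change. The siH19 level was 34.6% of the siCon level, with a 2 SE range of 28.9% to 41.5%.

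BAAT, the enzyme that joins bile acids to taurine or glycine, had a normalized count of 199 in siH19 cells and 111 in siCon cells. It rose by a log2 fold change of 0.85 ± 0.18 in the authors' deposited table, a 1.80-fold change with an adjusted p of 4.6e-05. The 2 SE range ran from 140% to 231% of the siCon level, and 72 listed genes had a higher log2 fold change. Its range did not overlap that of any of the other 5 genes. This follows from its opposite direction, since none of the ranges reached 0. Per kilobase of the longest coding transcript, SULT2A1 stood 3.26-fold above BAAT in siH19 cells and 17.0-fold above it in siCon cells.

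Of 23 further genes of conjugation and detoxification 3 were listed. PAPSS1, which makes the sulfate donor that sulfotransferases use, was higher in siH19, at 0.41 ± 0.08 in the authors' deposited table. Its direction was thus opposite to that of SULT2A1. The glucuronidating enzymes UGT2B7 and UGT2B10 were lower, at -0.41 ± 0.12 and -0.31 ± 0.10 in the authors' deposited table. They belong to a family of close paralogs, and how reads shared between copies were counted is not stated in the labels.

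In the authors' deposited table, the export genes fell by less than the receptor or the sulfotransferase. ABCC2, the canalicular pump for conjugated organic anions including sulfated bile acids, had a normalized count of 5185 in siH19 cells and 6295 in siCon cells. Its log2 fold change in the authors' deposited table was -0.28 ± 0.07, with an adjusted p of 0.0014. The siH19 level was 82.4% of the siCon level, with a 2 SE range of 74.7% to 90.8%. The change of ABCC2 lay beside the median of all listed genes: after that median was subtracted, the difference was -0.01.

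SLC51B, the smaller subunit of the basolateral transporter, had a normalized count of 46.9 in siH19 cells and 70.0 in siCon cells. SLC51A, the larger subunit, had 13.7 in siH19 cells and 20.7 in siCon cells. Both subunits had the same log2 fold change in the authors' deposited table, -0.58 ± 0.20 for SLC51B (adjusted p = 0.0263) and -0.58 ± 0.22 for SLC51A (adjusted p = 0.0464). Each siH19 level was 66.9% of its siCon level, with 2 SE ranges of 50.7% to 88.3% for SLC51B and 49.3% to 90.8% for SLC51A. The ratio of SLC51B to SLC51A per kilobase of the longest coding transcript was 5.31 in siH19 cells and 5.27 in siCon cells.

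The evidence for SLC51A was the thinnest of the 6. Only 15 listed genes had a lower mean normalized count than its 17.2. Among the 22 listed genes with a mean count under 20, the smallest absolute log2 fold change was 0.57 in the authors' deposited table, so the value of SLC51A is about the smallest that was listed at this level. The deposited SE of 0.22 was also smaller than the 0.29 expected from counting error with 3 libraries in each group if the normalized counts are on the scale of reads. The same held for all 22 listed genes with a mean count under 20 and for 56 of the 108 under 50. Fold changes of such genes may have been shrunken toward 0, which the sources do not state. The size of -0.58 for SLC51A in the authors' deposited table carries that doubt. So does its smaller fall beside NR1H4 and SULT2A1. For SLC51B, with a mean normalized count of 58.4, the deposited SE was above counting error, but shrinkage was not tested there either. The gene shares 28957 bases with PCYT1A on the opposite strand in the GENCODE annotation, and SLC51B shares 60 bases with RASL12 and 615 with an antisense transcript. Whether counting used strand was not given in the sources, so reads from these neighbours cannot be told apart, and none of the 3 neighbours was among the genes of the table. Pseudogenes lie within or across the gene bodies of 3 others. BAAT shares 1260 bases with FYTTD1P1 on the same strand, which stranded counting would not separate, and 826 with another pseudogene on the opposite strand. ABCC2 shares 847 and NR1H4 235 bases with a pseudogene on the opposite strand. Whether these overlaps reach exons was not examined.

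Setting the fold changes side by side, the 2 SE ranges overlapped in 4 of 15 pairs. These were NR1H4 with SULT2A1, SLC51A with SLC51B, and ABCC2 with each SLC51 subunit. In the other 11 pairs the ranges were apart, including NR1H4 at -1.31 against SLC51B at -0.58 and against ABCC2 at -0.28, values of the authors' deposited table. Every pair with BAAT is among these 11 and was apart by direction alone, since none of the ranges reached 0. NR1H4 and SLC51A were apart only with the deposited SE. With an SE no smaller than counting error the SLC51A range reached -1.16 and overlapped that of NR1H4, which ended at -1.07, and 10 pairs were apart. All 6 genes were measured in the same libraries, so their errors may be shared, and the ranges are not a test.

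**Figure D2:**
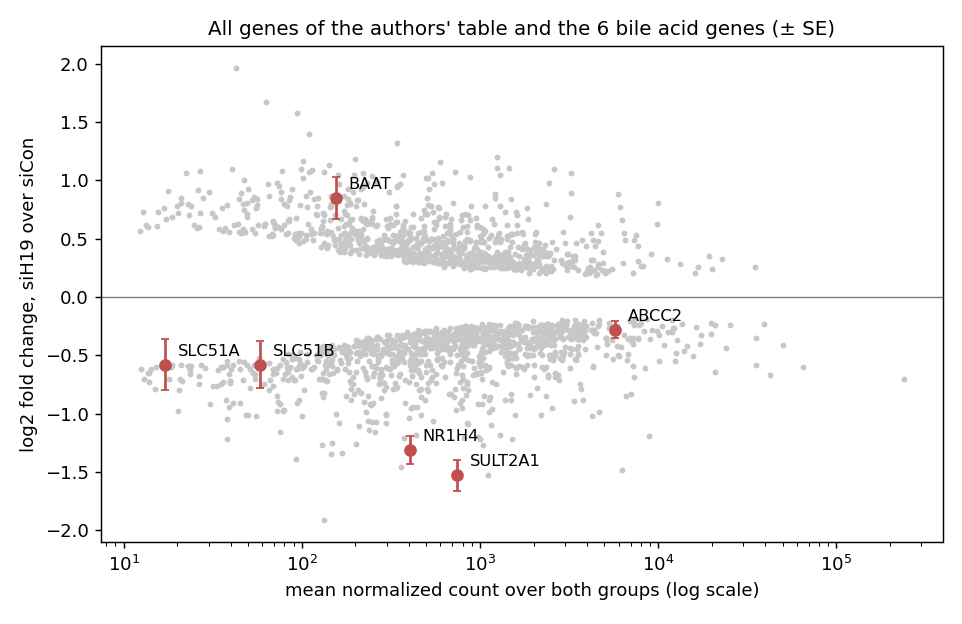
Log2 fold change of siH19 over siCon against the mean normalized count (log axis) for the 1998 genes of the authors' deposited table (grey), with the 6 genes in red and bars of ± 1 SE. The empty band around 0 is where no gene was listed, SLC51A and SLC51B sit at its edge, and SULT2A1 and NR1H4 lie among the lowest points.

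Levels were put in order per kilobase of the longest coding transcript, since a longer transcript yields more reads. In siH19 cells the order was ABCC2 at 893 normalized counts per kilobase, SULT2A1 at 193, NR1H4 at 80.6, BAAT at 59.1, SLC51B at 49.8 and SLC51A at 9.39. In siCon cells it was ABCC2 at 1084, SULT2A1 at 556, NR1H4 at 201, SLC51B at 74.5, BAAT at 32.8 and SLC51A at 14.1 normalized counts per kilobase. BAAT and SLC51B thus changed places, and the other 4 genes kept theirs. No spread per group was available to say which neighbours differ. The gap between SLC51A and SLC51B depended on the length used, since the merged exons of SLC51A span 5293 bases and its longest coding transcript 1463. With merged exons the ratio of SLC51B to SLC51A was 19.2 in siH19 cells and 19.1 in siCon cells.

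The promoter windows of the enzymes at either extreme and of both transporter subunits are shown because FXR acts through sites built from the 6-base half-site AGGTCA and its variant AGTTCA. The windows come from RefSeq on GRCh38.p14, a different build from the hg19 named in the submitters' processing notes, and run from 250 bases before to 50 bases after the start site, 5′ to 3′ on the gene's strand. All 6 genes had a window there, BAAT had 2, and the one nearer to its GENCODE start is printed. The NR1H4 window lies 29652 bases and the SLC51A window 5047 bases from the start of the gene in GENCODE, so other start sites of these genes were not searched. Positions are SULT2A1 at chr19:47886266-47886565 (minus strand), BAAT at chr9:101383515-101383814 (minus), SLC51A at chr3:196216284-196216583 (plus) and SLC51B at chr15:65045137-65045436 (plus). Capitals mark a half-site on either strand and, in SLC51B, 13 bases that resemble an inverted repeat.
SULT2A1: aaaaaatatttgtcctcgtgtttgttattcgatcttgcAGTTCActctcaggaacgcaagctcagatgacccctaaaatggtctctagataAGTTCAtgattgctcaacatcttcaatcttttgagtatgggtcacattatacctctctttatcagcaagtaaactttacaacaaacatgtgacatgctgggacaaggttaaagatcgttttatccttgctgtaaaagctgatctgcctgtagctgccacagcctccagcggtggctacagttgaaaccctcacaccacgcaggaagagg
BAAT: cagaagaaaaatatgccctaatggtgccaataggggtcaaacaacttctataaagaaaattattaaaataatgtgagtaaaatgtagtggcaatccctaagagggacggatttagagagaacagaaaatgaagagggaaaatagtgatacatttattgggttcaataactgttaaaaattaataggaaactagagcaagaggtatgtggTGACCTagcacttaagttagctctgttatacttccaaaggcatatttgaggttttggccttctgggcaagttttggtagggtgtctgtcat
SLC51A: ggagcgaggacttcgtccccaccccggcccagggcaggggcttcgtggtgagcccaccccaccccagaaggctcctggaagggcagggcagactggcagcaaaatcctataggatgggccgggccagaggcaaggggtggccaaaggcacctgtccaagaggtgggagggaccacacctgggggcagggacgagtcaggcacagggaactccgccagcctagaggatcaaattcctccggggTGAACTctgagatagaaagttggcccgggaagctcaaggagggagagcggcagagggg
SLC51B: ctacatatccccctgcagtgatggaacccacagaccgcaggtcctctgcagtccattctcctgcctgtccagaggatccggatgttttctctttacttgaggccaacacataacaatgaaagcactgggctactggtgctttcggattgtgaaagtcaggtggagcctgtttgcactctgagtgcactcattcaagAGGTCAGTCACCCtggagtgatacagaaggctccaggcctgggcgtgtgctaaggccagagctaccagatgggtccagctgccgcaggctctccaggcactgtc

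SULT2A1 held 2 copies of AGTTCA, starting at -212 and -159 from the start site, and SLC51A held 1 at -8. AGGTCA started at -41 in BAAT, at -54 in SLC51B and at -230 in NR1H4, and neither half-site was in the ABCC2 window. Both searches covered both strands, and 22.6% of all 35116 windows held at least 1 of the half-sites, 13.8% AGGTCA and 10.4% AGTTCA. FXR with RXR is known to prefer 2 such half-sites that face each other with 1 base between them. An exact inverted repeat of AGGTCA with 1 base between them was in none of the windows. In SLC51B the closest stretch had 2 mismatches, and 1.12% of all windows came as close, while the closest stretch had 4 mismatches in SULT2A1, SLC51A, NR1H4 and BAAT and 5 in ABCC2. These matches are descriptions of the letters and do not show binding. The printed BAAT window and that of SLC51B both held AGGTCA, and the other BAAT window held neither half-site. BAAT rose and SLC51B fell. Any part of the half-sites in these changes was not tested.

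In 3' untranslated regions, 2 sequences of 7 bases were searched because earlier results of this table had tied them to direction. Of 1881 listed genes searched, 365 held CATCAAA: 69.9% of these and 50.9% of the rest were lower in siH19. GCAGTAC was in 191, and 16.8% of these and 58.9% of the rest were lower. None of the 6 genes held CATCAAA. ABCC2, which was lower, held GCAGTAC, and the other 5 did not. Since both sequences were chosen from this table, the shares are no independent check of direction.

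The lists of the bile acid pathway by step, conjugation included, named 111 further genes, of which 19 were in the table, 16 lower and 3 higher with a median of -0.42, beside 55.3% lower and a median of -0.27 over all listed genes. Of 21 symbols of synthesis enzymes 4 were listed, and these 4 were lower, where 55.3% of all listed genes were lower. AKR1D1, the reductase that gives bile acids their bent ring, had the largest fall, -1.35 ± 0.15 in the authors' deposited table. Its normalized count was 82.7 in siH19 cells and 211 in siCon cells. ACOX2 and SLC27A2, which oxidise the bile acid side chain and activate it for oxidation, changed by -0.70 ± 0.13 and -0.66 ± 0.12, and HSD17B4, a later side chain enzyme, by -0.27 ± 0.09 in the authors' deposited table.

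Uptake and intracellular binding were represented by FABP1, a fatty acid and bile acid binding protein, at -1.02 ± 0.21, and by the anion carrier SLCO2B1 at -0.42 ± 0.14 in the authors' deposited table, 2 of 13 symbols. Beside ABCC2 in the canalicular list, the efflux pump ABCG2 and the copper transporter ATP7B were lower, at -0.43 ± 0.10 and -0.36 ± 0.10 in the authors' deposited table. On the basolateral side ABCC6 was lower (-0.62 ± 0.12) and the conjugate pump ABCC1 was higher (0.24 ± 0.08) in the authors' deposited table. ABCC6 has near-identical pseudogenes that may share its reads. The pseudogene ABCC6P1 was itself listed, at a log2 fold change of -1.0 in the authors' deposited table. Its mean normalized count was 298, beside 312 for ABCC6. SLC9A3R1, a scaffold that holds ABCC2 at the apical membrane, was at -0.34 ± 0.08, close to ABCC2 itself, and MYO5B, a motor that carries apical transporters, was at 0.26 ± 0.09 in the authors' deposited table.

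**Figure D3:**
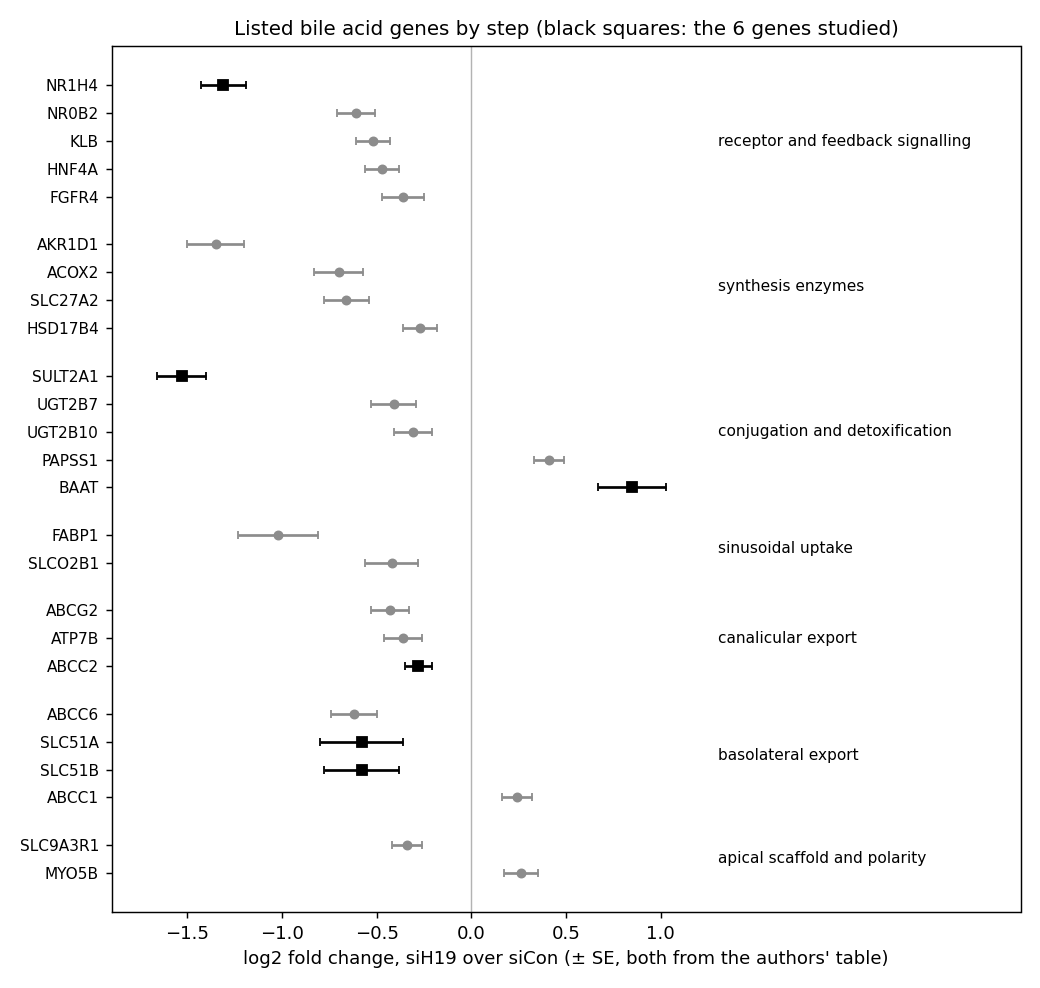
Log2 fold change of siH19 over siCon with ± 1 SE, both from the authors' deposited table, for the 25 listed genes of the bile acid pathway arranged by step, with the 6 genes as black squares. Of the 25, 21 lie left of 0, and BAAT is the point farthest to the right.

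A list of genes reported to respond to the receptor in liver cells was read in the same way. Apart from the 5 of the 6 genes that it contains, 9 of its 29 symbols were listed and these 9 were lower, with a median of -0.69, beside 55.3% lower and a median of -0.27 over all listed genes. The largest falls were those of KNG1, a kininogen (-1.16 ± 0.20), APOC3, a lipoprotein component (-0.92 ± 0.13), and DDAH1, which clears methylated arginines (-0.85 ± 0.13), in the authors' deposited table. The list was compiled from general knowledge, holds genes reported as raised and as lowered by the receptor (APOC3 among the lowered), and includes secreted liver proteins that also fall in the hepatocyte markers. FGA and FGB stand in both lists. The 10 listed hepatocyte markers were all lower as well, with a median of -0.64. BAAT, in the same list, was its 1 listed member that was higher.

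The listed genes most like each of the 6 were found by the distance between their pairs of group levels on the log2 scale, over 2 group values only. They were DDC for NR1H4 (distance 0.17), MISP for BAAT (0.03), CD68 for SULT2A1 (0.35), CTNNA1 for ABCC2 (0.05), ITGAL for SLC51A (0.11) and KCNE3 for SLC51B (0.04). SULT2A1 had the most distant neighbour: CD68 had a log2 fold change of -1.21, against -1.53 for SULT2A1, in the authors' deposited table.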

How the data were processed

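RNA was measured in 6 HepG2 libraries, 3 per group. The submitters' processing notes name STAR (2.5.0a), build hg19, DESeq2 (1.0.0) and Cufflinks (2.2.1). The role of each, the annotation and the use of strand are not stated there. The group levels, fold changes and SEs are log2 values deposited by the authors, 1 combined value per group. The mean count is a normalized signal deposited by the authors. The q value, an adjusted p-value, was also deposited by the authors and is at most 0.0498. The fold change equals siH19 minus siCon within 0.01. The number of columns from other samples was 0.

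Group levels were raised to the power of 2 and divided by lengths from GENCODE release 29 (GRCh38, used for lengths, overlaps and 3' untranslated regions). Motifs were searched in RefSeq promoter windows. Counts and medians were computed with Python 3.11.15 and pandas 2.3.3. Simulated or planted data were used to test the counting error, the counts by direction, the nearest gene and the motif search. The counting error was checked only for genes with a mean count above 50, so not for SLC51A. Levels per kilobase and overlaps were not tested in this way. No test was added, because the table holds called genes and no value per library. The labels give no batch.

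The 6 genes, the pathway lists and the markers were chosen with earlier results of these data known. A result of the pathway lists is not reported here and is left out of their counts. The rule for named genes took these 6, the 3 largest absolute changes in each list and the nearest gene to each of the 6. HNF4A, FGFR4, HSD17B4, UGT2B10, PAPSS1, ABCC1, ABCC6P1, DDAH1, FGA, FGB and ALB were named after their values were seen. Alternatives were a stricter adjusted p, a minimum count, a minimum fold, centring, and other lengths.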

Additional observations from a re-analysis of the deposited data

How the results depend on the processing

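No paired analysis was possible because the table holds 1 combined value per group, and for the same reason no library could be left out and no pseudocount varied. Of the 6 genes, 5 were lower in siH19 as deposited, 3 at an adjusted p under 0.01 or a mean count of at least 100, 2 at a change of at least 1.5-fold, and 3 without genes that overlap another gene, pseudogenes set aside, the last chosen after seeing the data. SLC51A and SLC51B dropped out each time, and ABCC2 at the fold minimum, which the SLC51 genes missed narrowly at 1.49-fold. BAAT was higher under each of these 4. With overlapping pseudogenes counted too, also chosen after seeing the data, SULT2A1 alone was left, so 1 gene was lower and 0 higher. Of the other pathway genes, 16 were lower and 3 higher as deposited, with 6 lower and 0 higher at the fold minimum and 1 higher at an adjusted p under 0.01. Of all 1998 listed genes, 219 had a mean count under 100. The shares of all listed genes lower at these cutoffs are not given. Whether such losses are particular to these genes was therefore not tested. Subtracting the median of all listed genes, -0.27, gave -1.04 for NR1H4, -1.26 for SULT2A1, 1.12 for BAAT and -0.31 for both SLC51 genes, with no change of direction, and left ABCC2 at -0.01. The order of levels per kilobase was the same with merged exons and with coding length. By coding length, however, NR1H4 and BAAT were almost level in siH19 cells, at 159.3 and 159.1 normalized counts per kilobase. With an SE no smaller than counting error, also chosen after seeing the data, all 6 genes lay beyond 2 SE from 0, SLC51A at the very edge. Only the SE of SLC51A was changed by this. Being listed had already placed the other 5 that far from 0, so the check adds nothing for them. Low normalized counts limit SLC51A and SLC51B most, and library totals are unknown.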
